A study of Rattus norvegicus with 12 samples.

Results

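The genes described here build and drive the transport machinery of the primary cilium. They are the protein-coding genes whose symbol begins with Ift or Bbs and a digit, together with Kif3a, Kif3b, Kifap3, Kif17, Dync2h1, Dync2li1, Wdr19, Wdr35, Ttc21b, Ttc26, Traf3ip1, Cluap1, Arl13b, Arl6 and Tulp3. This rule takes names only, and it found 36 genes among the 21071 of the table. RNA was sequenced from rat nucleus pulposus cells, which fill the soft centre of the intervertebral disc, in 12 libraries that form 4 groups of 3. In the group named NPPC-Exo the cells were given exosomes from nucleus pulposus progenitor cells. In the group named miR-Exo their source was the same progenitor type made to overexpress miR-221-3p, a microRNA. The groups named Erastin+NPPC-Exo and Erastin+miR-Exo received the same kinds of exosome together with erastin, an inhibitor of the cystine/glutamate exchanger used to induce ferroptosis (cell death by iron-driven lipid oxidation). The labels give erastin at 0.1 to 5 µM for 48 h with no dose for a single library, and 50 µg/mL for NPPC-Exo with no separate dose for miR-Exo. Every group received exosomes, so no library shows the cells without them. Nothing in the labels ties the replicates to different animals or cultures. The p-values therefore measure only the spread between libraries, which may be technical.

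A primary cilium is a single antenna of microtubules that projects from most vertebrate cells and is built and kept by a shuttle called intraflagellar transport (IFT). The IFT-B complex rides outwards on the kinesin-2 motor, the IFT-A complex is needed for the return journey on dynein-2 and for the entry of membrane proteins, and the BBSome, recruited by the small GTPase Arl6, ships membrane proteins out again. Cilia carry Hedgehog receptors and are taken apart before cells divide. In the intervertebral disc, cells of the nucleus pulposus bear primary cilia, and loss of the IFT-B subunit Ift88 or Ift80 in mice is known to disturb the disc. The measurements below are of RNA and hold no count of cilia.

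Transcripts of 35 of the 36 genes were counted in every library, and Kif17, a second kinesin-2 motor known mainly from neurons and photoreceptors, was the exception with 0 to 47 counts per library. The other genes had between 233 counts (Bbs12, a chaperonin-like assembly factor of the BBSome) and 6596 counts in a library. All 36 passed the filter on low counts. Per length, as mean FPKM over the 12 libraries, Tulp3, the adaptor that carries receptors into the cilium with IFT-A, stood first at 53.1. Ift43 of IFT-A followed at 24.6, then Ift52 of the IFT-B core at 20.4 and Kifap3, the non-motor subunit of kinesin-2, at 19.3. The lowest mean levels belonged to Dync2h1, the heavy chain of dynein-2, at 3.87, Bbs10 at 2.81, Bbs12 at 2.1 and Kif17 at 0.106. The libraries of a group lay close together: over the 35 genes other than Kif17, the median coefficient of variation was 7.81% in NPPC-Exo, 5.45% in miR-Exo, 5.72% in Erastin+NPPC-Exo and 6.51% in Erastin+miR-Exo.

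Many promoters of cilium genes hold the X-box, the letters bound by transcription factors of the RFX family. It consists of GTTNCC and GGNAAC, with 0 to 3 bases between them, and GTTGCC is a common form of one arm. Promoter windows from 250 bases before to 50 bases after the annotated start were taken from RefSeq on build GRCr8, in which 30 of the 36 genes were matched. Letters were searched on both strands. GTTGCC was present in 15 of the 30 windows (50%), against 12.5% of the 10686 windows of genes tested in the table and 12.2% of all 27457 windows. The whole X-box was in 1 window of the 30 (3.33%), that of Arl6, against 0.758% and 0.841%. A match is a description of the letters and not a binding site. The 6 stretches below come from the called genes, higher with miR-Exo under erastin, whose match begins shortly before the annotated start, with GTTGCC in capitals. Kif3a, with matches at -233 and -128, and Ttc26, Bbs1 and Bbs2, with matches after the start at bases 5, 17 and 25, are not shown. Nor is another match of Ift81, at -11 on the opposite strand. The match of Wdr19 and another of Ttc26 are left out because their stretches ran past the window. Each stretch is read so that the motif appears as GTTGCC.

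Arl6: aagctcccGTTGCCaagggaacgccgcgcg
Ift81: tggcaaccGTTGCCaaggagcggtctctag
Dync2li1: gctccttgGTTGCCatggcagcgacgtcag
Bbs5: gccgatgcGTTGCCttggtgtccataagac
Ift88: gcccagccGTTGCCaggtgcggctccaagg
Wdr35: cggcgctgGTTGCCaggcgacgggagcttc

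On GRCr8 the stretch of Arl6 is chr11:54181337-54181366 on the plus strand, with the motif at base -13 from the start, and its capitals are the first arm of the whole X-box. That of Ift81 is chr12:39618610-39618639 on the plus strand, with the motif at -4. The stretch of Dync2li1 is chr6:15778167-15778196 on the plus strand, opposite to the gene, with the motif at -14. Those of Bbs5 (chr3:74818593-74818622, plus strand) and Wdr35 (chr6:37490553-37490582, plus strand) have the motif at -39 and -10. The stretch of Ift88 is chr15:35688937-35688966 on the minus strand, opposite to the gene, with the motif at -34. Positions count along the gene's strand to the first base of the match. The share with GTTGCC was 11 of 21 (52.4%) among matched genes that were higher with miR-Exo under erastin and 4 of 9 (44.4%) among the other matched genes, so the letters did not separate them.

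Library totals ran from 54616827 to 68865720 counts. Scaling used edgeR's TMM (trimmed mean of M values) factors, which ran from 0.877 in an NPPC-Exo library to 1.15 in an Erastin+miR-Exo library, and CPM below are on this scale. The scaling matters for erastin: with library size alone the median log2 fold change of all 15650 genes tested moved from 0.0175 to 0.3 under NPPC-Exo and from 0.0287 to 0.334 under miR-Exo. Of the markers of the labelled cell type, the matrix genes Acan and Col2a1 were high without erastin, at 742 to 902 and 154 to 256 FPKM, and read 118 to 144 and 13.7 to 57.1 FPKM with it. Pax1 read 31.6 to 35.8 and Sox9 7.02 to 10.7 FPKM without erastin, and 5.77 to 10.5 and 1.56 to 4.15 FPKM with it. Hif1a read 36.6 to 50.1 and Cd24 3.57 to 6.36 FPKM without erastin, and 41.3 to 67.9 and 7.84 to 13.5 FPKM with it. The rest were low: Krt8 stayed at or below 2.74, Ptn at or below 2.21 and Foxf1 at or below 1.28 FPKM, and Krt18 was at or near 0. The fibroblast collagen Col1a1 read 3458 to 5343 FPKM without erastin. The summed FPKM of 10 nucleus pulposus markers was 985 to 1140 in NPPC-Exo, 1070 to 1240 in miR-Exo, 243 to 261 in Erastin+NPPC-Exo and 224 to 234 in Erastin+miR-Exo. Acan and Col2a1 make up most of that sum. With erastin, 2 of the 9 tested were called higher and 4 lower under NPPC-Exo, against 21.5% and 22.1% of all genes. Under miR-Exo 2 were higher and 5 lower, against 24.7% and 24.4% of all genes. The summed FPKM of 10 fibroblast and annulus markers was 8230 to 9210, 8460 to 9670, 4180 to 4810 and 2860 to 3620 in the same order of groups. Col1a1 and Col3a1 make up most of that sum, and single members went the other way in Erastin+miR-Exo against Erastin+NPPC-Exo: Lum read 174 to 183 against 38.9 to 47.3 FPKM and Dcn 14.6 to 17 against 1.56 to 2.34 FPKM. In that comparison 3 of the 10 were called higher and 4 lower, against 15.6% and 15.8% of all genes. Leukocyte, endothelial and erythroid markers summed to at most 2.56, 5.88 and 0.45 FPKM in any library. The part of these shifts in the results below was not tested, and in bulk RNA fewer cells of a type and less RNA per cell cannot be told apart.

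The largest movement of the transport genes was between the kinds of exosome in cells given erastin. A gene is called where its p from edgeR's quasi-likelihood test, adjusted by Benjamini and Hochberg over all genes tested, was under 0.05. Of the 36 genes, 26 were called higher in Erastin+miR-Exo than in Erastin+NPPC-Exo and 0 lower. The background was 31.3% of all genes called either way, 15.6% higher and 15.8% lower. The median log2 fold change was 0.359 over the 36 genes and 0.011 over all genes. The calls spread over every arm of the machinery, counted within the 36. They took in 7 of 8 subunits of the IFT-B1 core, 3 of 5 of the peripheral IFT-B2, 3 of 3 of the IFT-A core and 5 of 6 BBSome subunits. Also called were 3 of 3 subunits of the heterotrimeric kinesin-2 and 2 of 2 dynein-2 genes.

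**Figure D1:**
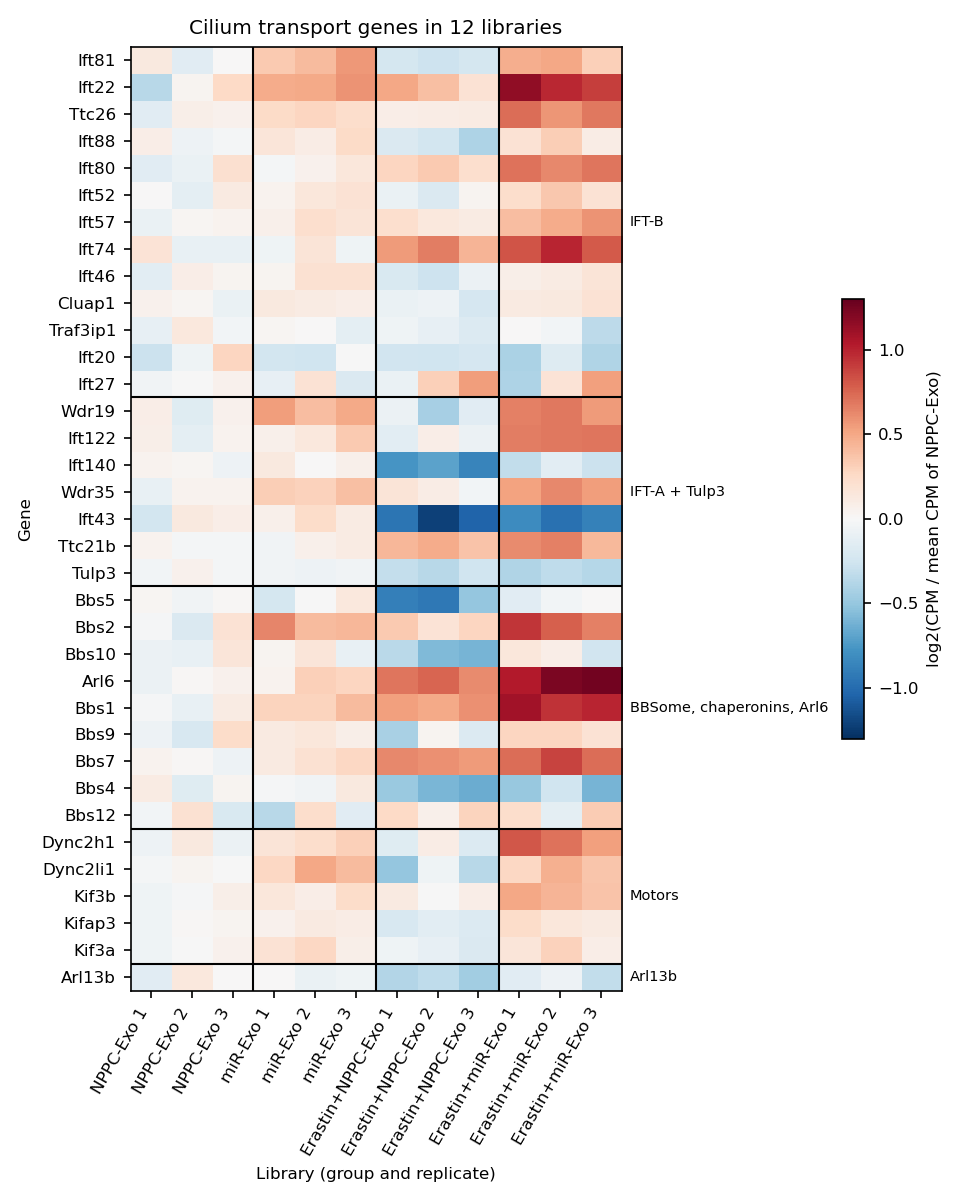
Heat map of log2 ratios of CPM to the mean of the 3 NPPC-Exo libraries, for 35 transport genes (rows, grouped by role) in 12 libraries (columns); Kif17 is left out for its low counts. The 3 Erastin+miR-Exo columns are red for most rows, with median ratios of 0.274, 0.35 and 0.329, while Ift43, Ift140, Bbs4 and Tulp3 are blue in all 6 erastin columns.

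In the IFT-A core the log2 fold changes ran from 0.53 to 0.84. Wdr19 read 17.4, 13.7 and 16.6 CPM in the Erastin+NPPC-Exo libraries and 28.9, 29.5 and 27 CPM in the Erastin+miR-Exo libraries. These do not overlap, and the log2 fold change was 0.84 ± 0.0996 (SE, adjusted p = 4.44e-05). Ift122 read 29.1, 34.1 and 30.5 CPM against 50.8, 51.6 and 52.2 CPM, a log2 fold change of 0.72 ± 0.0844 (SE, adjusted p = 3.95e-05). Ift140 read 34.2, 35.9 and 32.1 CPM against 46.6, 52.8 and 47.8 CPM, which gave 0.53 ± 0.0671 (SE, adjusted p = 7.74e-05). All 3 Erastin+miR-Exo libraries were above all 3 Erastin+NPPC-Exo libraries for each of these genes. In the table Ift140 overlaps Tmem204 on the opposite strand over 25402 bases, and whether counting used the strand is not given in the sources used here. Tmem204 went the other way in this comparison, with a log2 fold change of -1.32. Of the peripheral IFT-A subunits, Wdr35 was called (0.49), and Ift43 (0.18) and Ttc21b (0.14) were not.

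Both dynein-2 genes within the naming rule were higher. Dynein-2 powers the return to the cell body, and subunits outside the rule, given below, went both ways. Dync2h1 read 38.9, 46.5 and 38.3 CPM in Erastin+NPPC-Exo and 75.5, 70.8 and 62.7 CPM in Erastin+miR-Exo, a log2 fold change of 0.76 ± 0.0914 (SE, adjusted p = 5.19e-05). Dync2li1, the light intermediate chain, had 0.67 ± 0.112 (SE, adjusted p = 0.000655). The outward motor moved less. Kif3a, one of its motor subunits, read 44.5, 42.9 and 40.6 CPM against 51.5, 56.8 and 49.2 CPM, with 0.30 ± 0.0716 (SE, adjusted p = 0.0064). Kifap3 read 71.3, 74.8 and 72.9 CPM against 97.6, 91.3 and 89.3 CPM, with 0.35 ± 0.0512 (SE, adjusted p = 0.00025). Kif3b, the other motor subunit, had 0.37. The call of Kif3a was lost without Erastin+miR-Exo replicate 2, where its log2 fold change was 0.22. Kif17 was at 0.377, 0.605 and 0.565 CPM against 0.326, 0.689 and 0.262 CPM, and the groups overlapped.

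Among the IFT-B genes, Ift81 (0.67), Ift22 (0.65), Ttc26 (0.57) and Ift88 (0.48) had the largest log2 fold changes. Ift81 binds tubulin together with Ift74, Ift22 is a small Rab-like GTPase, and Ttc26 and Ift88 are core subunits. Ift88 read 13.5, 13 and 11.6 CPM in Erastin+NPPC-Exo and 17.5, 19.2 and 16.4 CPM in Erastin+miR-Exo, so the groups were apart (adjusted p = 0.00171). The other called IFT-B genes lay between 0.26 (Cluap1) and 0.40 (Ift80). Ift20, which also serves at the Golgi, read 21.1, 20.9 and 21.5 CPM against 18.9, 22.3 and 19.1 CPM and was not called (-0.07, adjusted p = 0.709). Ift27 and Traf3ip1 were not called either. Calls ended when single libraries were left out for Cluap1 (0.20 without Erastin+NPPC-Exo replicate 3), for Ift46 (Erastin+NPPC-Exo replicates 1 or 2, Erastin+miR-Exo replicate 3) and for Ift74 (Erastin+NPPC-Exo replicates 1 or 3, Erastin+miR-Exo replicates 1 or 2). Over all omissions Ift46 stayed between 0.23 and 0.33 and Ift74 between 0.23 and 0.35.

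The BBSome subunits Bbs1, Bbs2, Bbs5, Bbs7 and Bbs9 were called higher, and Bbs4 was not (0.13). Bbs5 read 4.47, 4.34 and 5.86 CPM in Erastin+NPPC-Exo and 7.46, 8.08 and 8.29 CPM in Erastin+miR-Exo, a log2 fold change of 0.70 ± 0.138 (SE, adjusted p = 0.00197). Bbs2 read 15.2, 13.6 and 14.6 CPM against 22.9, 20.6 and 18.9 CPM, with 0.52 ± 0.111 (SE, adjusted p = 0.00313). Arl6, which brings the BBSome to the membrane, read 17.9, 18.6 and 16.8 CPM against 22.5, 25.6 and 26.3 CPM, with 0.48 ± 0.0946 (SE, adjusted p = 0.00181). In each case the higher group held the 3 highest libraries. Bbs7 was the weakest call (0.18, adjusted p = 0.0481), and it overlaps Exosc9 on the opposite strand over 11493 bases. It was lost in 9 of the 12 omissions, all except those of NPPC-Exo replicates 1 and 3 and miR-Exo replicate 1, with log2 fold changes from 0.11 to 0.19. Bbs9 and Bbs10 each lost their call in 4 omissions, namely Erastin+miR-Exo replicates 1 or 2 and Erastin+NPPC-Exo replicate 3 for both, with replicate 1 of the latter group for Bbs9 (0.30 to 0.52) and replicate 2 for Bbs10 (0.41 to 0.60).

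The adaptor and the GTPase tied to the ciliary membrane were not called. Arl13b, the GTPase that marks the ciliary membrane, read 25.4, 26.2 and 24.2 CPM in Erastin+NPPC-Exo and 29.8, 31.6 and 26.5 CPM in Erastin+miR-Exo. Its groups did not overlap, yet it was not called (0.21, adjusted p = 0.0789), although it was with library size alone (0.32). Tulp3 read 72.7, 70.2 and 75.3 CPM against 68.7, 72 and 70 CPM, an overlap, with -0.05 (adjusted p = 0.474), which became 0.05 with library size alone. In all, 27 of the 36 genes had groups that did not overlap here, all with miR-Exo higher, against 24.5% of all genes tested. With library size alone 28 were called higher and 0 lower.

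**Figure D2:**
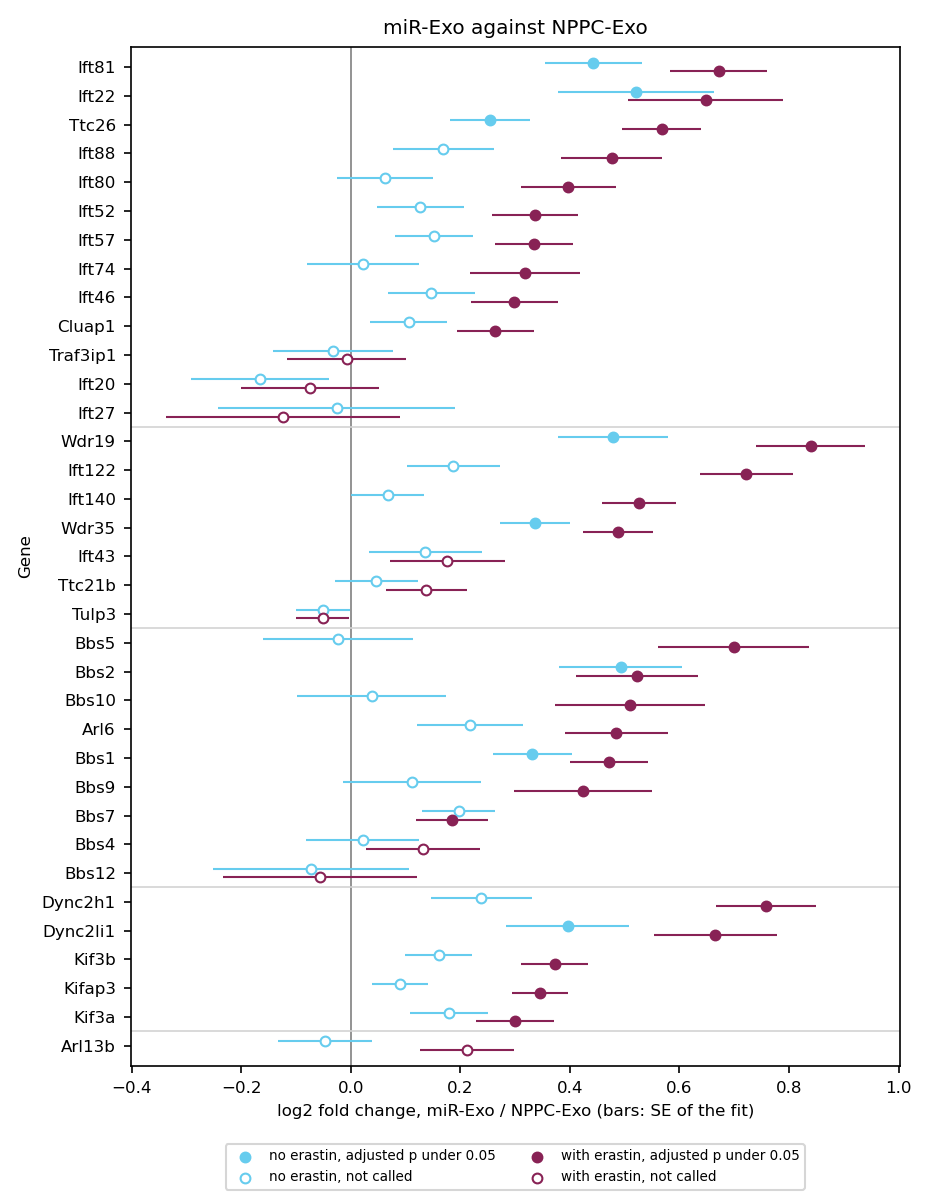
Fitted log2 fold changes of miR-Exo over NPPC-Exo (x axis) for 35 transport genes (y axis), without erastin (light blue) and with erastin (dark red); bars are standard errors of the fit and filled points are genes with adjusted p under 0.05. Without erastin 8 points are filled and with erastin 26, all to the right of 0.

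Without erastin the same contrast was smaller. Of the 36 genes, 8 were higher in miR-Exo than in NPPC-Exo and 0 lower, where the background was 10.7% either way, 4.15% higher and 6.52% lower. The median log2 fold change was 0.141 over these genes and 0 over all genes. The 8 were Ift22, Ift81, Ttc26, Wdr19, Wdr35, Bbs1, Bbs2 and Dync2li1, and each was also among the 26 genes higher with miR-Exo under erastin, that is 8 of 8 and 8 of 26. These 2 comparisons share no library.

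Ift22 read 6.77, 8.92 and 10.5 CPM in NPPC-Exo and 12.2, 12.2 and 13.1 CPM in miR-Exo, a log2 fold change of 0.52 ± 0.143 (SE, adjusted p = 0.0355). Bbs2 read 11.9, 10.5 and 13.7 CPM against 18.6, 15.9 and 16.2 CPM, with 0.49 ± 0.112 (SE, adjusted p = 0.0141). Wdr19 read 19.5, 16.4 and 19.1 CPM against 26.7, 24.2 and 25.9 CPM, with 0.48 ± 0.0998 (SE, adjusted p = 0.0087). The miR-Exo libraries were the higher ones for all 3 genes, without overlap. Ift81 read 24.1, 19.9 and 22.1 CPM against 27.9, 29.3 and 32.5 CPM, with 0.44 ± 0.0883 (SE, adjusted p = 0.00661). Ift81, Wdr19 and Wdr35 (0.34) held their calls in all 12 omissions of a library. Deviations of same-numbered NPPC-Exo and miR-Exo libraries correlated by 0.422, 0.226 and 0.14, while NPPC-Exo replicate 3 with miR-Exo replicate 2 gave 0.219. With the replicate number as a block over all 12 libraries, 6 of the 36 were called, Ift22 and Ttc26 no longer among them. The count fell to 3 without NPPC-Exo replicate 2 and to 5 without NPPC-Exo replicate 1 or any 1 of the miR-Exo replicates. Ift22 lost its call without any of those 5 libraries (0.37 to 0.67), Bbs2 without NPPC-Exo replicate 2 or miR-Exo replicate 1 (0.41 to 0.59) and Bbs1 without NPPC-Exo replicate 2 (0.29). Ttc26 lost it without any library of the groups compared (0.19 to 0.30), and Dync2li1 without any NPPC-Exo library, miR-Exo replicates 2 or 3 or Erastin+NPPC-Exo replicate 3 (0.34 to 0.46).

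Other transport genes were not called without erastin, although 17 of the 36, called or not, had all 3 miR-Exo libraries above all 3 NPPC-Exo libraries, against 13% of all genes tested. Ift140 read 59.7, 59.1 and 55.3 CPM in NPPC-Exo and 63.4, 58.4 and 60.9 CPM in miR-Exo (log2 fold change 0.07, adjusted p = 0.581). Ift88 read 16.3, 14.7 and 15.1 CPM against 17.1, 16.5 and 18.3 CPM (0.17, adjusted p = 0.278), without overlap, and Ift20 20.7, 24.1 and 30.3 CPM against 21.1, 20.9 and 24.9 CPM (-0.17, adjusted p = 0.45). Kif3a (0.18), Kifap3 (0.09) and Dync2h1 (0.24) had groups that did not overlap but were not called. Arl6 (0.22), Arl13b (-0.05) and Tulp3 (-0.05) were not called either. Kif17 was at 0, 0.188 and 0.289 CPM against 0.655, 0.588 and 0.425 CPM, apart but at few counts, and was not called (adjusted p = 0.202).

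Erastin was next compared with none. Under NPPC-Exo, 17 of the 36 were called between Erastin+NPPC-Exo and NPPC-Exo, 6 higher and 11 lower, where the background was 43.6% either way, 21.5% higher and 22.1% lower. The share called was near that of all genes, and the split of higher and lower depends on the scaling, as given below. The median log2 fold change was -0.0943 against 0.0175 over all genes. The genes that fell were Ift43, Ift140 and Tulp3 of the IFT-A arm, Ift81 and Ift88 of IFT-B, Bbs4, Bbs5 and Bbs10, the motor genes Kifap3 and Dync2li1, and Arl13b. The genes that rose were Arl6, Bbs1, Bbs7, Ift74, Ift80 and Ttc21b.

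Ift43 fell most. It read 24, 30.8 and 30.1 CPM in NPPC-Exo and 14.6, 12.2 and 13.8 CPM in Erastin+NPPC-Exo, a log2 fold change of -1.06 ± 0.105 (SE, adjusted p = 2.31e-06). Ift140 went from 59.7, 59.1 and 55.3 CPM to 34.2, 35.9 and 32.1 CPM, with -0.77 ± 0.0671 (SE, adjusted p = 7.02e-07), beside a log2 fold change of -1.74 for the overlapping Tmem204. Bbs5 went from 8.45, 8.04 and 8.36 CPM to 4.47, 4.34 and 5.86 CPM, with -0.76 ± 0.138 (SE, adjusted p = 0.000549). For all 3 genes every erastin library was below every library without it. Bbs4 went from 25.9, 21.5 and 24.5 CPM to 17.1, 15.9 and 15.3 CPM, with -0.57 ± 0.103 (SE, adjusted p = 0.000494). Arl13b went from 29.8, 36.3 and 33 CPM to 25.4, 26.2 and 24.2 CPM, with -0.39 ± 0.0861 (SE, adjusted p = 0.00247). Tulp3, at 88.2, 93.8 and 88.6 CPM without erastin and 72.7, 70.2 and 75.3 CPM with it, had -0.31 ± 0.0486 (SE, adjusted p = 0.000155).

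On the rising side, Arl6 went from 10.4, 11.1 and 11.4 CPM to 17.9, 18.6 and 16.8 CPM, with 0.69 ± 0.0961 (SE, adjusted p = 5.59e-05). Bbs7 went from 29.9, 29.4 and 27.8 CPM to 44.9, 43.8 and 42.7 CPM, with 0.59 ± 0.0663 (SE, adjusted p = 7.54e-06), while the overlapping Exosc9 had -0.15. Ift74 went from 22.3, 18.5 and 18.5 CPM to 29.1, 31.3 and 26.9 CPM, with 0.56 ± 0.101 (SE, adjusted p = 0.000545). None of these groups overlapped. Bbs1 went from 25.7, 24.4 and 28.1 CPM to 37.8, 36.6 and 39.2 CPM, with 0.54 ± 0.0722 (SE, adjusted p = 4.01e-05). Ift20 (-0.24), Kif3a (-0.12), Dync2h1 (-0.07) and Bbs2 (0.27) were not called.

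The balance of rises and falls rests on the scaling. With library size alone 16 of the 36 were called higher and 4 lower under NPPC-Exo, and 77.8% of all called genes were higher, against 49.3% with TMM. The 4 that were lower on both scales were Ift43 (-0.78 with library size alone), Ift140 (-0.49), Bbs5 (-0.48) and Bbs4 (-0.29), while Ift81, Ift88 and Kifap3 changed sign. The 6 genes called higher were higher on both scales. Calls also ended on leaving out libraries for Ift80 (NPPC-Exo replicates 1 or 2, 0.21 to 0.39 over all omissions), Kifap3 (Erastin+NPPC-Exo replicates 1 or 3, -0.20 to -0.14) and Ift88 (NPPC-Exo replicate 1, Erastin+NPPC-Exo replicates 2 or 3, -0.30 to -0.20). Ift81 kept its call only without NPPC-Exo replicate 2, miR-Exo replicates 1 or 3 or Erastin+miR-Exo replicate 3 (-0.31 to -0.17), and Dync2li1 only without miR-Exo replicate 1 or Erastin+NPPC-Exo replicate 2 (-0.41 to -0.18).

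Under miR-Exo, 18 of the 36 were called between Erastin+miR-Exo and miR-Exo, 14 higher and 4 lower, where the background was 49.1% either way, 24.7% higher and 24.4% lower. The median log2 fold change was 0.135 against 0.0287 over all genes. With library size alone 24 were higher and 1, Ift43, was lower. The 14 were the 6 that had risen under NPPC-Exo together with Bbs2, Dync2h1, Ift22, Ift57, Kif3b, Ttc26, Ift122 and Wdr35, and the 4 lower genes, Ift43, Bbs4, Tulp3 and Ift140, had fallen there too. None of the 36 was called in opposite directions under the 2 kinds of exosome. The call of Ift22 ended without Erastin+miR-Exo replicate 1 (0.41). That of Bbs2 held without miR-Exo replicate 1, Erastin+miR-Exo replicate 3 or an NPPC-Exo library, and ended in the 7 other omissions (0.21 to 0.37 over all).

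Arl6 read 11.4, 13.6 and 13.4 CPM in miR-Exo and 22.5, 25.6 and 26.3 CPM in Erastin+miR-Exo, with a log2 fold change of 0.96 ± 0.0952 (SE, adjusted p = 2.38e-06). Ift74 went from 19, 22.3 and 19 CPM to 35, 39.4 and 34.4 CPM, with 0.85 ± 0.101 (SE, adjusted p = 1.21e-05). Bbs1 went from 31.9, 31.8 and 34.8 CPM to 55.8, 50 and 51.8 CPM, with 0.68 ± 0.0716 (SE, adjusted p = 4.12e-06). These groups were far apart. Ift80, whose loss disturbs cartilage and disc in mice, went from 33.7, 35.8 and 38.1 CPM to 55.9, 53 and 55.7 CPM, with 0.61 ± 0.0863 (SE, adjusted p = 5.75e-05). Ift43 fell from 29.6, 33.3 and 30.4 CPM to 16, 14.5 and 15.4 CPM, with -1.02 ± 0.104 (SE, adjusted p = 2.98e-06). Bbs4 fell from 23.7, 23.2 and 26.1 CPM to 17, 20.1 and 15.8 CPM, with -0.47 ± 0.103 (SE, adjusted p = 0.0021). Ift43 is thus the gene with the largest fall under both kinds of exosome, by values near each other. Tulp3 (-0.31, adjusted p = 0.00014) and Ift140 (-0.31, adjusted p = 0.00169) were the other called falls, and on library size alone both were close to 0 (-0.0058 and -0.0052). Not called were Ift20 (-0.15), Ift88 (0.03), Kif3a (0.00), Kifap3 (0.08) and Arl13b (-0.13).

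**Figure D3:**
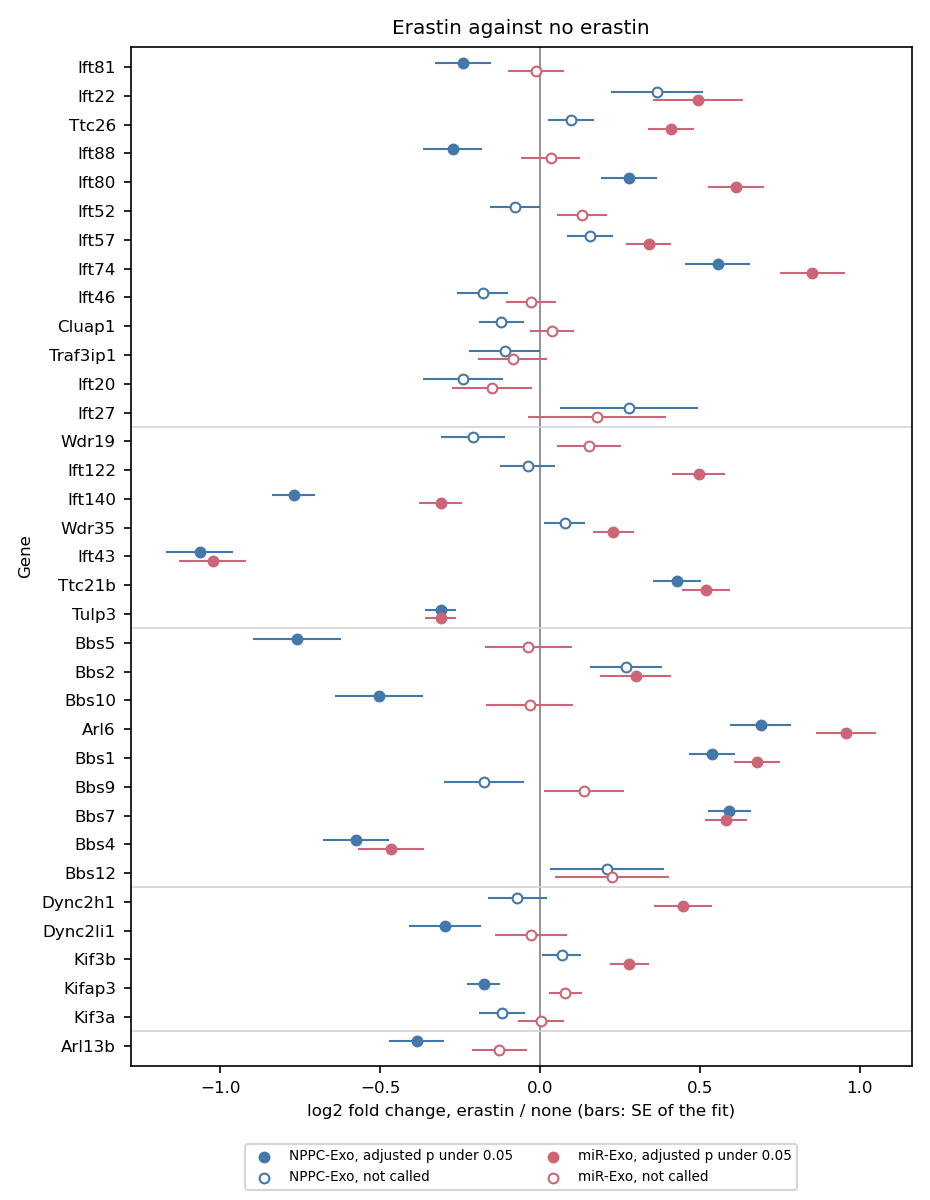
Fitted log2 fold changes of erastin over none (x axis) for 35 transport genes (y axis), under each kind of exosome; bars are standard errors of the fit and filled points are genes with adjusted p under 0.05. Ift43 lies farthest left for both at -1.06 and -1.02 and Arl6 farthest right at 0.69 and 0.96.

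Whether erastin acted differently under the 2 kinds of exosome was tested as an interaction, the log2 change with erastin under miR-Exo minus that under NPPC-Exo, which equals the exosome difference with erastin minus that without. Of the 36 genes, 5 were called, all above 0, where the background was 12.8% either way, 5.81% above and 7.01% below. The share called either way was near that of all genes. The median was 0.196 over the transport genes and 0.0294 over all genes. The 5 were Ift122, Ift140, Dync2h1, Bbs5 and Kifap3. The count was 2 without NPPC-Exo replicate 2, miR-Exo replicate 1, Erastin+NPPC-Exo replicate 1 or Erastin+miR-Exo replicates 1 or 2. It was 3 without NPPC-Exo replicate 3, miR-Exo replicate 2 or Erastin+NPPC-Exo replicates 2 or 3. For the other genes, a call under one kind of exosome and not the other is not shown to be a difference between them.

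Ift122 changed by -0.04 with erastin under NPPC-Exo and by 0.50 under miR-Exo, an interaction of 0.53 ± 0.12 (SE, adjusted p = 0.0127). Ift140 changed by -0.77 and -0.31, an interaction of 0.46 ± 0.0947 (SE, adjusted p = 0.0086). These 2 IFT-A core genes held their calls in all 12 omissions of a library. Bbs5 changed by -0.76 and -0.04, which left it at 7.07, 8.24 and 9.12 CPM in miR-Exo and 7.46, 8.08 and 8.29 CPM in Erastin+miR-Exo, and its interaction was 0.72 ± 0.194 (SE, adjusted p = 0.0293). Dync2h1 changed by -0.07 and 0.45, with 0.52 ± 0.13 (SE, adjusted p = 0.0213), and Kifap3 by -0.18 and 0.08, with 0.26 ± 0.0725 (SE, adjusted p = 0.0367). Bbs5 kept its call only without NPPC-Exo replicate 1, miR-Exo replicate 3 or Erastin+NPPC-Exo replicate 3 (0.61 to 0.85 over all omissions), and Kifap3 only without NPPC-Exo replicate 1 or Erastin+miR-Exo replicate 3 (0.19 to 0.28). Dync2h1 lost it without NPPC-Exo replicate 2, miR-Exo replicate 1, Erastin+NPPC-Exo replicates 1 or 3 or Erastin+miR-Exo replicates 1 or 2 (0.43 to 0.58).

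**Figure D4:**
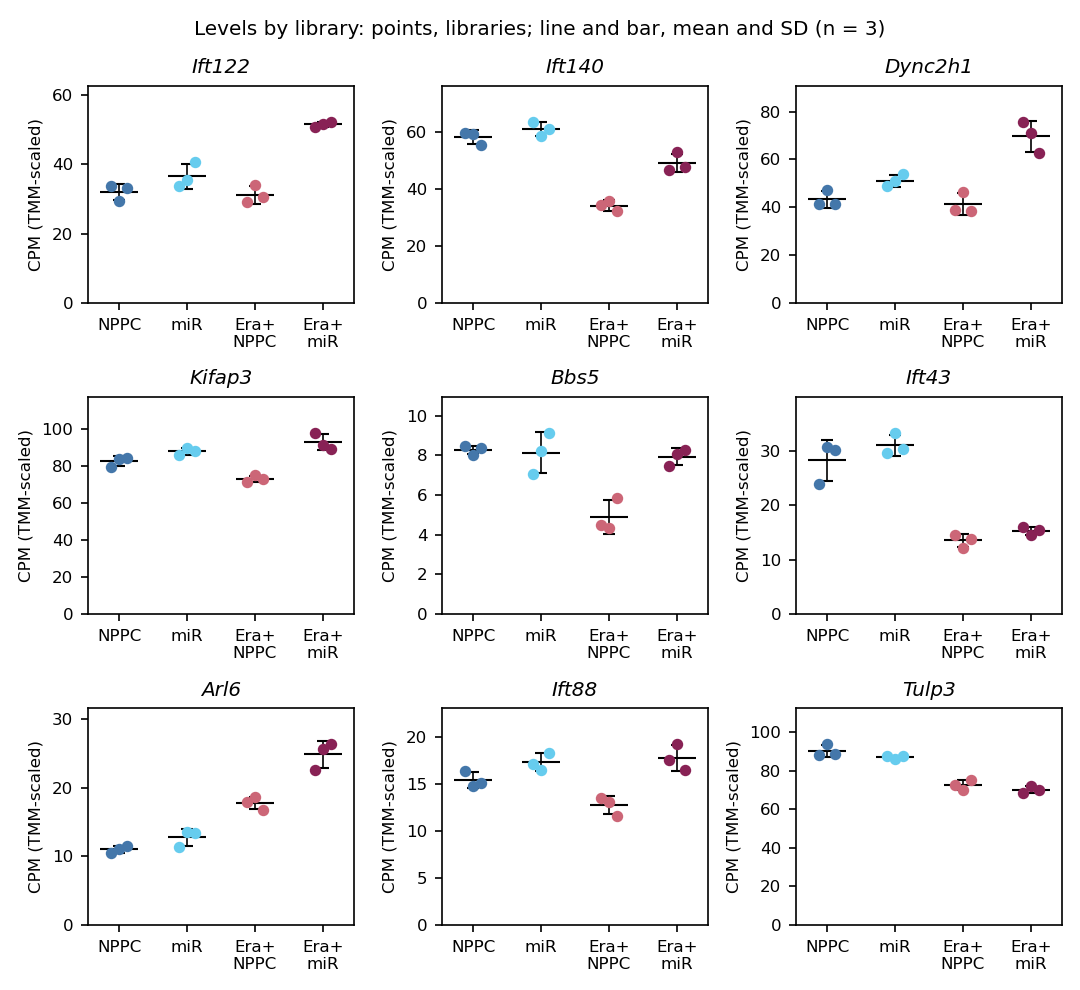
CPM on the TMM scale (y axes, from 0) of 9 transport genes in the 4 groups (x axes); each point is a library and the line and bar give the mean and SD of 3. Ift122 stands at 50.8 to 52.2 CPM in Erastin+miR-Exo and at 29.1 to 40.5 CPM elsewhere, while Ift43 and Tulp3 are low in both erastin groups.

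Ratios between subunits within a library do not depend on scaling, and 5 pairs were read. Ift74 and Ift81 form a stable pair in IFT-B. The FPKM of Ift74 over that of Ift81 was 0.892, 0.897 and 0.808 in NPPC-Exo, 0.654, 0.732 and 0.562 in miR-Exo, 1.49, 1.65 and 1.38 in Erastin+NPPC-Exo and 1.1, 1.22 and 1.21 in Erastin+miR-Exo. No 2 groups overlap, and the ratio was higher with erastin and lower with miR-Exo. For the BBSome subunits, Bbs4 over Bbs1 was 1.53 ± 0.124 (SD, n = 3) in NPPC-Exo, 1.23 ± 0.0175 in miR-Exo, 0.705 ± 0.0538 in Erastin+NPPC-Exo and 0.559 ± 0.0928 in Erastin+miR-Exo, so Bbs4 went from the more to the less abundant of the pair per length. For the motor subunits, Kif3b over Kif3a was 0.772 ± 0.00761 (SD, n = 3), 0.766 ± 0.0929, 0.879 ± 0.053 and 0.926 ± 0.0632 in the same order. The kinds of exosome overlapped both without and with erastin. With and without erastin, the groups overlapped under miR-Exo and were apart under NPPC-Exo. Ift43 over Ift140 was 3.18 ± 0.497 (SD, n = 3), 3.33 ± 0.345, 2.59 ± 0.334 and 2.04 ± 0.232, and Dync2li1 over Dync2h1 was 2.46 ± 0.135, 2.74 ± 0.19, 2.09 ± 0.153 and 1.98 ± 0.251. Between the kinds of exosome, the ratio of Ift43 to Ift140 overlapped with and without erastin, and that of Dync2li1 to Dync2h1 overlapped with erastin but not without.

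Other genes of the cilium were read from lists. Of 17 transport subunits outside the naming rule, 8 were higher and 3 lower with miR-Exo under erastin, against 15.6% and 15.8% of all genes. Tctex1d2, a dynein-2 light chain, was higher (0.78, adjusted p = 0.000619). Dynll1, a light chain shared with other dyneins and other complexes, was lower (-0.64, adjusted p = 0.00177). Wdr34, also of dynein-2, read 3.13, 3.68 and 3.39 FPKM in Erastin+NPPC-Exo and 2.33, 1.84 and 2.53 FPKM in Erastin+miR-Exo. Its interaction was -1.60 ± 0.325 (SE, adjusted p = 0.00827). Wdr60, another dynein-2 subunit, read 3.81 to 4.03 against 5.07 to 6.71 FPKM. Of 27 genes of the transition zone and basal body, the gate and the root of the cilium, 13 were higher and 1 lower, against the same shares. Tctn1 read 16.6, 21.3 and 19.3 CPM in Erastin+NPPC-Exo and 34.4, 32.1 and 37.6 CPM in Erastin+miR-Exo (0.86, adjusted p = 2.36e-05), and Tmem231, of the same gate complex, had 0.65 (adjusted p = 6.43e-06). The medians of these lists were 0.267 and 0.246, against 0.011 over all genes. Both gate genes were also higher without erastin, Tctn1 by 0.53 and Tmem231 by 0.40.

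The 13 genes linked to cilium disassembly, several of which are also mitotic genes, were mostly called with erastin. Of these, 10 were higher and 1 lower under NPPC-Exo (21.5% and 22.1% of all genes), and 8 higher and 3 lower under miR-Exo (24.7% and 24.4% of all genes), with medians of 0.792 and 0.754 against 0.0175 and 0.0287 over all genes. Plk1, the Polo-like mitotic kinase, went from 49.7, 43.7 and 39.9 CPM in NPPC-Exo to 122, 134 and 138 CPM in Erastin+NPPC-Exo (1.56, adjusted p = 3.31e-09). Aurka, the Aurora A kinase that triggers disassembly, rose by 1.35 and Nek2 by 1.45 there. Nedd9, of the same list, read 57.4 to 59.5 FPKM in NPPC-Exo and 40.8 to 42.9 FPKM in Erastin+NPPC-Exo. Under miR-Exo Kif24 rose with erastin by 1.99, while Nedd9 fell (-0.77, adjusted p = 7.24e-08). Between the kinds of exosome under erastin, 1 of the 13 was higher and 6 lower with miR-Exo, against 15.6% and 15.8% of all genes. Among the lower genes were Plk1 (-0.46, adjusted p = 0.000569) and Stil (-0.47, adjusted p = 0.00155). With library size alone the same comparison gave 1 higher and 4 lower.

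The regulators of ciliogenesis were called in both directions. Of 19 tested, 2 were higher and 4 lower with miR-Exo under erastin, against 15.6% and 15.8% of all genes. The share called either way was near the 31.3% of all genes. With library size alone 6 were higher and 2 lower, where 35.3% of all genes were called. Rfx1, of the family that binds the X-box, read 18.5, 19.6 and 22.5 CPM in Erastin+NPPC-Exo and 8.32, 5.63 and 8.02 CPM in Erastin+miR-Exo (-1.47, adjusted p = 0.000347). Rfx7 was lower as well (-0.40). Rfx2 and Rfx3, named here after their values were seen, were not called in that comparison (0.18 and 0.31). Of 14 tested Hedgehog genes, 3 were higher and 5 lower there, against 15.6% and 15.8% of all genes. Ptch1, the Hedgehog receptor and itself a target of the pathway, read 22.9, 20.2 and 24.1 CPM in NPPC-Exo, 20.2, 21.1 and 22 CPM in miR-Exo, 16.4, 16 and 13.8 CPM in Erastin+NPPC-Exo and 34.1, 34.3 and 32.8 CPM in Erastin+miR-Exo. It fell with erastin under NPPC-Exo (-0.54) and rose under miR-Exo (0.68), and the interaction was 1.22 ± 0.125 (SE, adjusted p = 0.000181). Gli3, a Hedgehog transcription factor, rose with erastin under both (1.02 and 0.95), and Evc, a ciliary Hedgehog component, was lower with miR-Exo under erastin (-0.82).

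Genes of motile, multiciliated cells were measured because they share the transport machinery. The summed FPKM of 17 such markers was 3.44 to 4.1 in NPPC-Exo, 5.3 to 7.34 in miR-Exo, 8.09 to 8.93 in Erastin+NPPC-Exo and 16.7 to 18.5 in Erastin+miR-Exo. Both this sum and the median of the transport genes on the TMM scale were highest in Erastin+miR-Exo. On the TMM scale the transport median was lowest in Erastin+NPPC-Exo, where the sum was the second highest. The sum is in FPKM, however, which rests on library size. In FPKM, 27 transport genes had their lowest group mean in NPPC-Exo, 8 in Erastin+NPPC-Exo and 1 in miR-Exo. Of the 11 motile markers that passed the filter, 3 were higher and 0 lower with miR-Exo under erastin, against 15.6% and 15.8% of all genes. The master regulators Mcidas and Gmnc had 0 to 8 counts in every library, and the outer dynein arm genes Dnah5, Dnah9 and Dnah11 read at most 0.03 FPKM. Tekt1, a microtubule protein of motile cilia, went from 0.18 to 0.4 FPKM in NPPC-Exo to 6.71 to 7.28 FPKM in Erastin+miR-Exo. The part of these cells or genes in the results above was not tested.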

How the data were processed

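The authors deposited raw read counts per gene for 12 libraries and, beside them, FPKM rounded to 2 decimals in the same table. Per the submitters' processing notes StringTie and the build mRatBN7.2 were used, with no version. No aligner, counting tool or strand setting is named there (not given in the sources used here). Libraries were strand-marked, per the labels' protocols. Some deposited gene names and coordinates belong to an older assembly, so table coordinates are not printed.

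The members and lists were chosen with earlier results of these data known. The tools were edgeR 4.0.16, DESeq2 1.42.0 and limma 3.58.1, run in R 4.3.3. After filterByExpr 15650 genes remained. Counts were TMM-scaled and fitted with quasi-likelihood models on 4 group means over all 12 libraries, and p were adjusted by Benjamini and Hochberg over all genes tested. Code was tested on simulated data. A count of 0 allows up to 3 counts of a library. Given by library were, per comparison, up to 4 called members with the largest change each way, and Ift88, Ift20, Ift140, Bbs2, Kif3a, Kifap3, Dync2h1, Arl13b, Arl6 and Tulp3. From other lists up to 3 called genes with the smallest adjusted p were eligible. Alternatives were other scaling, filters, DESeq2, limma-trend on log2 FPKM with pseudocounts of 0.1 and 1, only the groups compared, halved counts, since 57.3% of the counts from 1 to 20 were even, a replicate block, and leaving out each library. The labels give replicate numbers but no shared source. Deviations of same-numbered libraries correlated by 0.422, 0.226 and 0.14 between NPPC-Exo and miR-Exo, all above 0.1. The numbers were taken to pair that comparison from the data on this ground alone. The reported fit left this pairing out. The replicate block was fitted over all 12 libraries, so that comparison alone was not tested as paired. The differently numbered NPPC-Exo replicate 3 and miR-Exo replicate 2 correlated by 0.219. Between the other groups not every pair was above 0.1.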

Additional observations from a re-analysis of the deposited data

Results flagged for a closer look

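In 5 transport genes the effect of erastin differed between the kinds of exosome by a test of the difference itself, edgeR's quasi-likelihood test of the interaction. That is 5 of 36, a share near the 12.8% of all genes called either way. The count was as low as 2 when single libraries were left out. Ift122 and Ift140 kept the call in all 12 omissions, Dync2h1 in 6, Bbs5 in 3 and Kifap3 in 2. The difference, as log2 change under miR-Exo minus that under NPPC-Exo, was 0.72 for Bbs5, 0.52 for Dync2h1, 0.53 for Ift122, 0.46 for Ift140 and 0.26 for Kifap3. The adjusted p-values were 0.0293, 0.0213, 0.0127, 0.0086 and 0.0367 in the same order. Ift140 stood at 59.7, 59.1 and 55.3 CPM in NPPC-Exo and at 63.4, 58.4 and 60.9 CPM in miR-Exo, and with erastin at 32.1 to 35.9 and 46.6 to 52.8 CPM.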

How the results depend on the processing

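The counts of called transport genes under other settings stayed within 1.5 times those reported, except when single libraries were left out. For miR-Exo against NPPC-Exo without erastin the count ran from 3 to 8 over the omissions, and for the interaction from 2 to 7. It ran from 14 to 17 for erastin under NPPC-Exo, from 16 to 18 under miR-Exo and from 21 to 26 for the kinds of exosome under erastin. Among values called in the reported fit or in the alternative, signs changed only where TMM was replaced by library size alone or by limma-trend on log2(FPKM + 0.1) or log2(FPKM + 1), which rest on library size too. In that order, erastin under NPPC-Exo gave 0.04192, 0.04014 and 0.03627 for Ift81, 0.107, 0.1012 and 0.09617 for Kifap3, and 0.009915, 0.003749 and 0.003381 for Ift88. Ift122 became 0.2444 and 0.2359 with the first pair of settings and Ift52 0.2048 with library size alone. Under miR-Exo, Ift81 became 0.2925, 0.2848 and 0.2681 and Ift46 0.2761, 0.271 and 0.2594. Library size alone moved the share of higher genes among all called from 50.4% to 76.4% for erastin under miR-Exo, from 38.9% to 68.7% for the kinds of exosome without erastin and from 49.7% to 68.6% with it. With limma-trend 24 transport genes were higher and 1 lower with erastin under miR-Exo, at either pseudocount. Outside NPPC-Exo against miR-Exo, replicate numbers did not pair the libraries. Over all 18 same-numbered pairs correlations ran from -0.241 to 0.422, with 4 above 0.1, and 11 of 36 differently numbered pairs were above 0.1. With the replicate block 16, 18, 6, 25 and 4 transport genes were called for erastin under NPPC-Exo, erastin under miR-Exo, the kinds of exosome without and with erastin, and the interaction. DESeq2 called 18, 18, 8, 26 and 6. Each gene but Kif17 had 233 or more counts in every library, and Kif17 had 0 to 47. Whether depth limited the calls of other genes with few counts was not tested.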
